A study of Mus musculus with 9 samples.

Results

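The genes of interleukin 6 (Il6), the subunits of interleukin 12 and interleukin 23 (Il12a, Il12b and Il23a) and interleukin 10 (Il10) were followed in mouse macrophages stimulated with bacterial lipopolysaccharide (LPS). They are 5 of the 12393 genes named on the array, chosen by symbol, and all of their probe sets were taken: 6 of 22626. Il12b had 2 probe sets and the other members 1 each. The cells were macrophages drawn into the peritoneum by thioglycollate, an irritant broth. They came from wild-type mice, from mice lacking MyD88 (MyD88 KO) and from mice lacking TRIF (TRIF KO). Each genotype was measured unstimulated and after 1 h and 4 h of LPS at 100 ng/ml, with 1 array for each of the 9 groups. The labels give no sex, age or strain background, and are silent on pooling of animals and on whether the 3 arrays of a genotype used cells of different mice.

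Interleukin 6 acts on the liver, lymphocytes and many other cells through its receptor IL-6R and the shared chain gp130, which activate the transcription factor STAT3. Il12a encodes the p35 chain and Il12b the p40 chain of interleukin 12, which drives interferon gamma production by T and NK cells. Interleukin 23 pairs the same p40 chain with p19, the product of Il23a. Interleukin 10 signals through STAT3 and restrains macrophage activation. LPS reaches these genes through Toll-like receptor 4, whose adaptors MyD88 and TRIF feed NF-kB and, for TRIF, IRF3 and type I interferon.

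The 4 promoter stretches below belong to Il6, Il12a and Il12b, the members whose values differed most between arrays. They are the 250 bases before each start site, 5′ to 3′ on the plus strand, from RefSeq annotation of the mouse build GRCm38.p6. That table held 4 start sites for 3 of the 5 genes: chr5:30012864-30013113 for Il6, chr11:44399813-44400062 for Il12b, and chr3:68690394-68690643 and chr3:68691174-68691423 for Il12a. Capitals mark exact matches to the letters of 6 motifs, described after them.
Il6: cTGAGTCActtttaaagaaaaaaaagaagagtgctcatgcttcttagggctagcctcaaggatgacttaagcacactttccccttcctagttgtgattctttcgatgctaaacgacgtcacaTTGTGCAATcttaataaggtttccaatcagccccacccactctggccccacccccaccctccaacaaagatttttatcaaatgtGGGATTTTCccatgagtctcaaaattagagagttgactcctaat
Il12b: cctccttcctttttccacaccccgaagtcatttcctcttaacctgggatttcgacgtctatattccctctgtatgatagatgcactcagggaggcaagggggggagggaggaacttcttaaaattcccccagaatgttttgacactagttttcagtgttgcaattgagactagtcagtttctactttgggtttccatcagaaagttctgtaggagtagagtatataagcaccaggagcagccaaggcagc
Il12a, upstream start: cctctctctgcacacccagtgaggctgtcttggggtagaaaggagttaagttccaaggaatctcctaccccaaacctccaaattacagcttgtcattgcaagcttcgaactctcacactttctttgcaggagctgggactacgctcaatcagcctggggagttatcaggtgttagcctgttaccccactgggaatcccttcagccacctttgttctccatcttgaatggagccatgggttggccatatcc
Il12a, downstream start: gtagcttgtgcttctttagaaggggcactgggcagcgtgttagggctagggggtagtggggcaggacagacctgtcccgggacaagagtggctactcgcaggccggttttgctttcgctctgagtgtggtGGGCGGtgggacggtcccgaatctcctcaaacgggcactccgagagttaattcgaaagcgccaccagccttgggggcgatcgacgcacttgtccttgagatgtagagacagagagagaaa

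The motifs were searched on both strands from 250 bases before to 50 bases after the start. The Il6 stretch held 3 of them. A kB match (searched as GGGNNNTTC) read GGGATTTTC from position -44 to -36, and a C/EBP match (TTNNGNAAT) read TTGTGCAAT from -128 to -120. An AP-1 match (TGANTCA) read TGAGTCA from -249 to -243, on a stretch that matches on either strand. Among 32851 such windows of the genome, 14.0% held the kB letters, 11.5% the C/EBP letters and 7.81% the AP-1 letters. The downstream Il12a start had an Sp1 match (GGGCGG) from -120 to -115, letters found in 35.7% of windows. The Il12b stretch and the upstream Il12a stretch held no match to these motifs, to TATAAA (13.6% of windows) or to the interferon response letters GAAANNGAA (8.56%). These are exact letter matches in fixed windows. Sites with other letters would be missed, so a stretch without a match can still hold such sites, and no binding was measured.

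The values are log2 expression values made with RMA, a method that corrects background, sets all arrays to one distribution of intensities and combines the probes of each probe set into 1 value. They carry no call of whether a transcript was detected. The arrays were alike in range: their medians lay between 7.01 and 7.07, their lower quartiles between 5.72 and 5.80, and correlations between arrays over all probe sets were 0.985 to 0.998. Myd88 itself read 9.19 to 9.34 on the MyD88 KO arrays and at least 9.54 on the others. The labels do not place its probes inside or outside the deleted sequence, so this does not check the genotypes. TRIF is encoded by Ticam1, which was not analysed here because no probe set carried that symbol alone.

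Il6 showed the widest range of the members. Wild-type macrophages had log2 levels of 3.97 unstimulated, 4.47 at 1 h and 6.95 at 4 h. MyD88 KO macrophages had 4.20, 3.90 and 3.98 at the same times. TRIF KO macrophages had 3.91, 4.29 and 4.31. Wild-type 4 h thus stood apart by 2.49 from the next highest array, wild-type 1 h, while the 8 other arrays lay within a narrow band near the bottom of the scale. On those 8 arrays the percentile rank of Il6 among all probe sets was 4.18 to 9.01, and on the wild-type 4 h array it was 48.0.

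The 4 h value of Il6 exceeded the unstimulated one by 2.98 (log2, 7.89-fold) in wild type, by 0.40 in TRIF KO and by -0.22 in MyD88 KO. The 3 unstimulated arrays of different genotypes spanned 0.28, which is the only gauge of spread that arrays with the same treatment give. The wild-type difference was above that span, and the TRIF KO difference was above it by a small margin. At 1 h the differences were 0.49, 0.38 and -0.30 in wild type, TRIF KO and MyD88 KO. Each time point has 1 array, so none of these differences has a replicate check. On the linear scale, the 4 h increase of Il6 in TRIF KO was 4.47% of the wild-type increase, and in MyD88 KO the linear value was lower at 4 h than at 0 h.

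Il12a, the p35 chain, had wild-type levels of 5.55, 5.67 and 7.25 at 0, 1 and 4 h. MyD88 KO macrophages had 5.62, 5.48 and 5.46. TRIF KO macrophages had 5.33, 5.57 and 6.26. Here 2 arrays stood above the rest, wild-type 4 h and then TRIF KO 4 h, and the other 7 lay between 5.33 and 5.67. The unstimulated arrays spanned 0.29. The 4 h difference was 1.70 (3.25-fold) in wild type, 0.93 (1.90-fold) in TRIF KO and -0.16 in MyD88 KO, so the wild-type and TRIF KO differences were above that span and the MyD88 KO difference was not. On the linear scale TRIF KO had 34.3% of the wild-type increase.

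Il12b, the p40 chain, was read by 2 probe sets that have the same accession in the platform annotation. For 1449497_at the levels were 5.54, 5.57 and 6.27 in wild type, 5.58, 5.37 and 5.46 in MyD88 KO cells and 5.60, 5.54 and 5.64 in TRIF KO cells. For 1419530_at they were 5.09, 5.13 and 5.96 in wild type, 5.26, 5.08 and 5.05 in MyD88 KO cells and 5.09, 5.05 and 5.33 in TRIF KO cells. Both gave the wild-type 4 h array as the highest and correlated with r = 0.958 over the 9 arrays. The wild-type 4 h difference was 0.73 for the first and 0.87 for the second, against spans of 0.06 and 0.18 between unstimulated arrays. In TRIF KO it was 0.03 and 0.24 and in MyD88 KO -0.12 and -0.22. The probe sets thus differed over TRIF KO, where the second exceeded its unstimulated span and the first did not. In MyD88 KO both probe sets fell by more than their spans. Neither reached 2-fold.

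Il23a, the p19 chain, stayed between 4.57 and 5.02. Its levels were 4.68, 4.89 and 5.02 in wild type, 4.60, 4.57 and 4.78 in MyD88 KO cells and 4.70, 4.85 and 4.78 in TRIF KO cells. The wild-type 4 h difference was 0.34, and those of MyD88 KO and TRIF KO were 0.18 and 0.07. The unstimulated arrays spanned 0.10, which the wild-type and MyD88 KO differences exceeded and the TRIF KO difference did not. Il10 had the flattest profile of the members, with levels of 4.99, 4.92 and 4.995 in wild type, 4.92, 4.91 and 4.89 in MyD88 KO cells and 4.88, 4.97 and 4.94 in TRIF KO cells. Its span over all 9 arrays was 0.12, which 1.02% of all probe sets did not exceed, where the median span was 0.31. No order can be read among its 9 values.

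**Figure D1:**
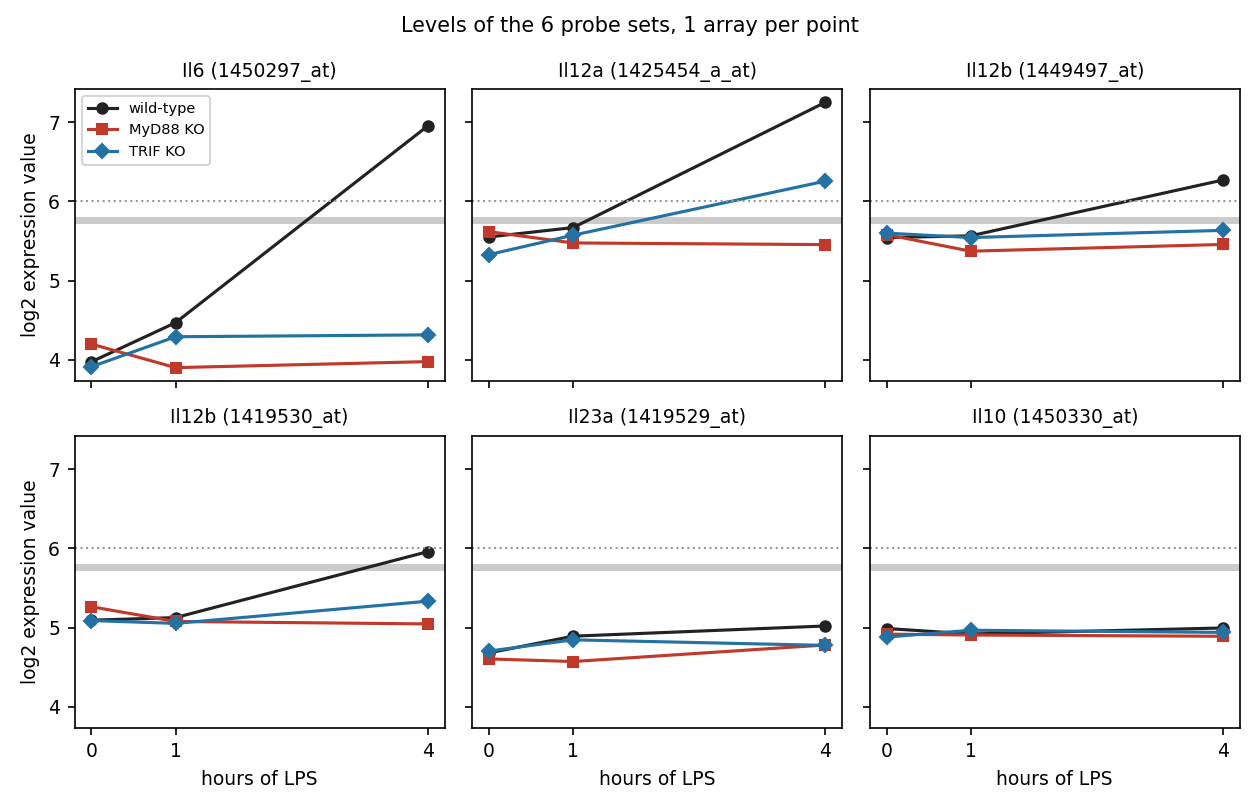
Log2 level of each member probe set (vertical axis) against hours of LPS (horizontal axis), 1 array per point, in wild-type (black circles), MyD88 KO (red squares) and TRIF KO (blue diamonds) macrophages. The grey band is the range of the lower quartiles of the 9 arrays (5.72 to 5.80) and the dotted line is log2 = 6; Il6 reached 6.95 and Il12a 7.25 on the wild-type 4 h array, while Il23a and Il10 stayed below the band on all arrays.

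A probe set was taken as near the array floor when it was below log2 = 6 on all 9 arrays. By this limit 3 of the 6 probe sets stayed near the floor, those of Il23a and Il10 and 1419530_at of Il12b, beside 26.1% of all probe sets. That Il12b probe set reached 5.96 on the wild-type 4 h array, just under the limit, and the other Il12b probe set reached 6.27, just over it. With a limit of 5 only Il10 stayed below it on every array, and with the lower quartile of each array as the limit Il23a and Il10 did. Il6 was above the limit of 6 on wild-type 4 h alone, and Il12a on wild-type 4 h and TRIF KO 4 h.

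A low level alone does not fix what the floor is, since probe sets differ in how brightly they read without their transcript. A reference of 18 genes of other organs, such as pituitary hormones and heart and kidney proteins, was read by 28 probe sets with values from 3.17 to 7.75. Of these, 18 stayed below 6 on all arrays, and none spanned more than 0.48 over the 9 arrays. The spans of Il6 (3.05), Il12a (1.92) and Il12b (0.90 and 0.91) were above that, and those of Il23a (0.45) and Il10 (0.12) were not. The members' levels lay inside the range of the reference genes on all 9 arrays. This includes wild-type 4 h, with Il6 at 6.955 and Il12a at 7.253. Whether the members were transcribed at all before LPS cannot be read from these values.

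At 4 h, 2 of the 6 member probe sets, those of Il6 and Il12a, were at least 2-fold higher than unstimulated in wild type, where 0.915% of all probe sets were. None reached 2-fold at 4 h in MyD88 KO (0.345% of all probe sets) or TRIF KO (0.287%), or at 1 h in wild type (0.137%), MyD88 KO (0.053%) or TRIF KO (0.0884%). The median 4 h difference of the 6 was 0.80 in wild type, -0.14 with MyD88 missing and 0.16 with TRIF missing, beside 0.03, -0.04 and -0.01 over all probe sets. All 6 had their highest value on the wild-type 4 h array, as did 24.2% of all probe sets, although for Il10 the margin over wild-type 0 h was 0.01.

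**Figure D2:**
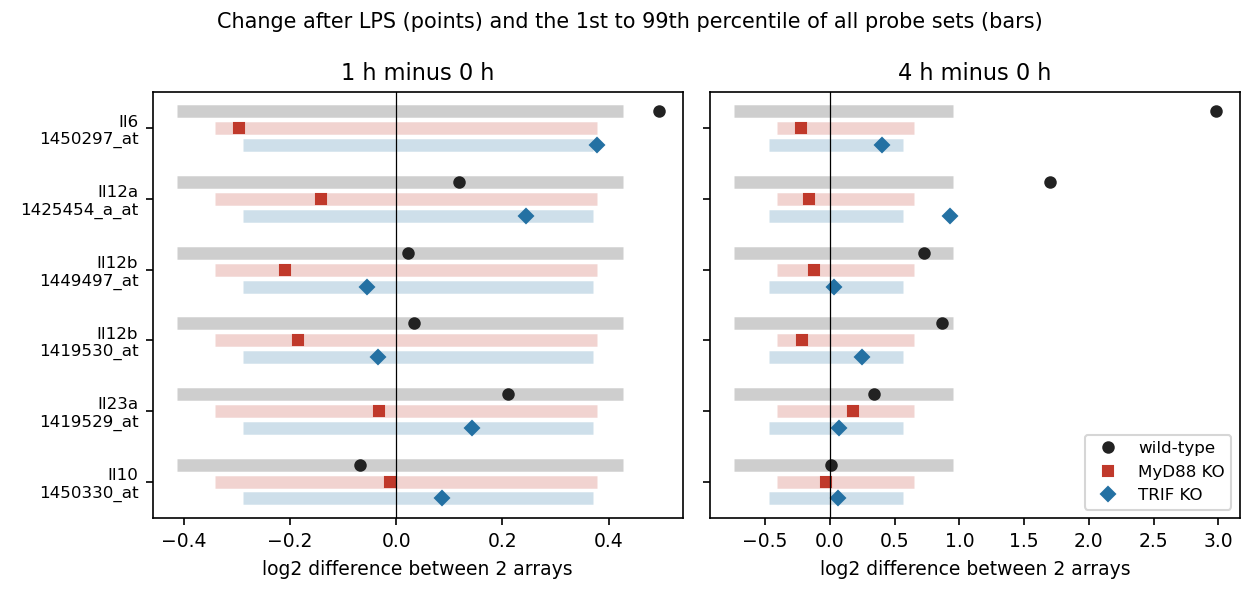
Log2 difference from the unstimulated array of the same genotype at 1 h (left) and 4 h (right), 1 point for each member probe set and genotype; the 2 horizontal axes differ in scale. Pale bars run from the 1st to the 99th percentile of all 22626 probe sets in that comparison; at 4 h Il6 (2.98) and Il12a (1.70) in wild type and Il12a in TRIF KO (0.93) lay above their bars.

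The knockouts were also set against wild type at 4 h directly; both comparisons use the same wild-type array. The difference for Il6 was -2.98 (log2) in MyD88 KO and -2.64 in TRIF KO. For Il12a it was -1.80 in MyD88 KO and -0.996 in TRIF KO, the latter just short of 2-fold. At least 2-fold lower were 2 of the 6 probe sets in MyD88 KO, beside 0.393% of all probe sets, and 1 of 6 in TRIF KO, beside 0.212%. For the Il12b probe sets the differences were -0.81 and -0.91 in MyD88 KO, and -0.64 and -0.63 in TRIF KO. For Il23a they were -0.24 and -0.25, and for Il10 -0.10 and -0.06.

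The MyD88 KO and TRIF KO profiles of Il6 and Il12a can be read side by side. The Il6 differences of the 2 knockouts at 4 h sum to 0.18 on the log2 scale, beside 2.98 in wild type, and those of Il12a sum to 0.77, beside 1.70. On the linear scale the increases of the 2 knockouts together were 2.24 for Il6, beside 108 in wild type, and 31.0 for Il12a, beside 106. To compare this with other genes, the wild-type 4 h value was set against the sum of the genotype's and the time point's average effects, a measure chosen after the values were seen. The excess of Il6 over that sum was 1.18, the highest of the 22626 probe sets, followed by Ccl5 with 1.15. Il12a had an excess of 0.57 and ranked 13th, and the Il12b probe sets had 0.35 and 0.31 and ranked 61st and 80th. Il23a (0.06) ranked 5224th and Il10 (0.02) 10753rd, beside a median of 0.02 over all probe sets. When values below 6 were raised to 6, the excess of Il6 was 0.42 (rank 30) and that of Il12a 0.50 (rank 16), because most of the distance that Il6 covered lies under 6.

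**Figure D3:**
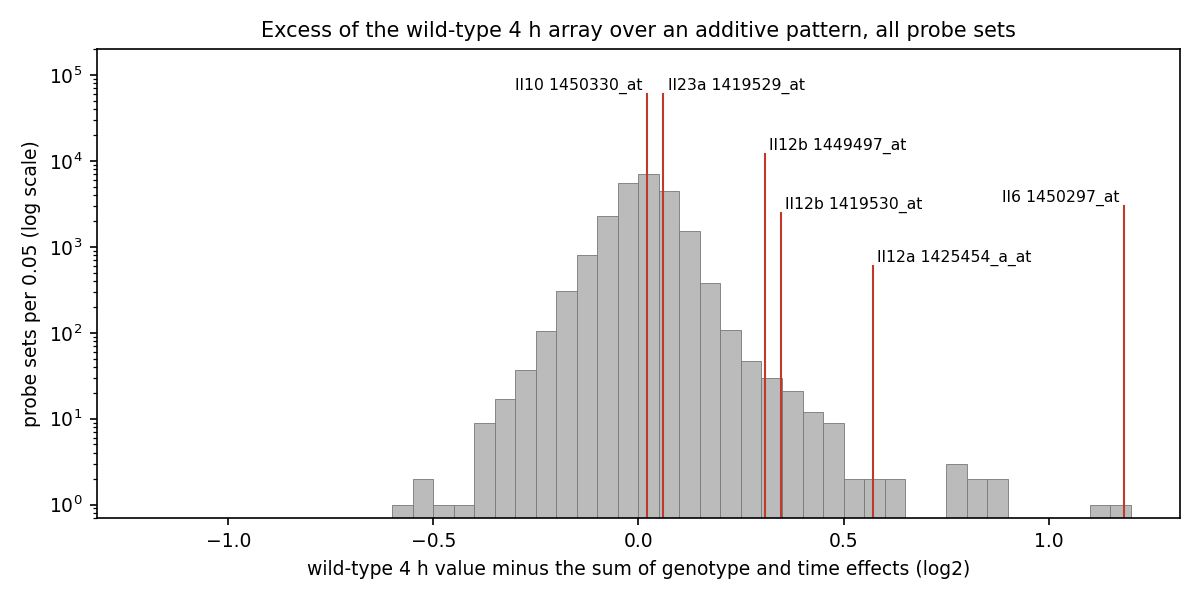
Number of probe sets (vertical axis, log scale) by the excess of the wild-type 4 h log2 value over the sum of genotype and time effects (horizontal axis, bins of 0.05), for all 22626 probe sets. Red lines mark the members: Il6 (1.18) is in the bin furthest to the right, Il12a (0.57) and both Il12b probe sets (0.31 and 0.35) lie above the 99th percentile of 0.20, and Il23a (0.06) and Il10 (0.02) lie below it.

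Tests were made with limma in an additive model (genotype plus time) of all 9 arrays, in which the genotypes stand in for replicates of a time and the times for replicates of a genotype. Adjusted p-values are by Benjamini-Hochberg over all 22626 probe sets with a threshold of 0.05. They reflect no more than the scatter among these arrays, in which uneven responses of the genotypes and technical scatter cannot be told apart. None of the 6 member probe sets passed in any of the 5 comparisons. The shares of all probe sets that passed were 0.164% at 1 h, 7.62% at 4 h, 4.91% in MyD88 KO, 1.19% in TRIF KO and 1.55% between the knockouts. At an unadjusted p under 0.05 the members numbered 0, 3, 4, 1 and 0 in that order, and the shares of all probe sets were 4.98%, 19.1%, 17.2%, 11.3% and 9.60%. A gene that answers in 1 genotype and not in the others has a large error in this fit, which covers the average over genotypes only.

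The fitted 4 h effect of Il6 over the 3 genotypes was 1.05 ± 0.43 (log2, SE, limma adjusted p = 0.187). It passed without the MyD88 KO arrays (1.69, adjusted p = 0.0219) and without the MyD88 KO 4 h array alone (1.57, 0.0318), and it was 0.17 without wild-type 4 h (0.736), 0.50 without wild-type 0 h (0.626) and 0.09 without the wild-type arrays (0.824). The adjusted p ranged from 0.0219 to 0.824 over the alternatives. The effect of MyD88 KO on Il6 over the 3 times was -1.11 ± 0.43 (limma adjusted p = 0.189) and passed without the 0 h arrays (-1.77, 0.0441) or without wild-type 0 h (-1.67, 0.0368). It was -0.22 without wild-type 4 h (0.631) and -0.17 without the 4 h arrays (0.865), the upper end of its range. That of TRIF KO was -0.96 ± 0.43 (limma adjusted p = 0.418) and -0.07 without wild-type 4 h (0.968). These 3 fitted effects on Il6 rested on the wild-type 4 h array. For Il12a the 4 h effect was 0.82 ± 0.24 (limma adjusted p = 0.061), the closest of the members to the threshold. It passed when arrays were centred on reference transcripts (0.91, 0.0154), without the MyD88 KO arrays (1.31, 0.000178), and without MyD88 KO 0 h (1.12, 0.011) or 4 h (1.26, 0.000235). It was 0.39 without wild-type 4 h (0.325) and 0.38 without the wild-type arrays (0.393), in a range of adjusted p from 0.000178 to 0.57. The Il12a effect of MyD88 KO, -0.64 ± 0.24 (limma adjusted p = 0.18), passed without MyD88 KO 0 h (-0.94, 0.0382), was -0.21 without wild-type 4 h (0.72) and was -0.06 without the 4 h arrays (0.972).

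For Il12b the 4 h effects were 0.21 ± 0.13 and 0.30 ± 0.15 (limma adjusted p = 0.419 and 0.3). The second, 1419530_at, passed without the MyD88 KO arrays (0.56, 0.0135) or without MyD88 KO 4 h (0.53, 0.0177), in a range of 0.0135 to 1.0. Without wild-type 4 h the 4 h effect was 0.04 for 1419530_at and -0.02 for 1449497_at, so the latter turned sign. The MyD88 KO effect on the first, 1449497_at, was -0.32 ± 0.13 (limma adjusted p = 0.195) and passed without wild-type 0 h (-0.48, 0.0432), but was -0.09 without wild-type 4 h (0.762) and -0.08 without the 4 h arrays (0.946). For Il23a the 4 h effect was 0.20 ± 0.08 and the MyD88 KO effect -0.21 ± 0.08 (limma adjusted p = 0.16 and 0.151). Neither passed under any of the alternatives run. All effects on Il10 were between -0.06 and 0.01 with an SE of 0.06.

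The receptor side of the pathway was measured by 11 of 13 listed receptor and signalling genes, with values from 5.86 to 11.56. At 4 h limma called 1 higher and 2 lower, and at 1 h none. Jak2, a kinase bound to several of these receptors, rose by 0.59 ± 0.13 (SE, limma adjusted p = 0.0114). Its 4 h differences were 1.04 in wild type, 0.10 in MyD88 KO cells and 0.63 in TRIF KO cells. Il6st, which encodes gp130, fell by 0.33 (adjusted p = 0.027), and Il10rb, a chain of the interleukin 10 receptor, fell by 0.23 (adjusted p = 0.0449). The other Il6st probe sets passed no 4 h test (-0.10 and -0.23, adjusted p = 0.653 and 0.126). Il10ra, the ligand-binding chain of that receptor, was lower in MyD88 KO than in TRIF KO (-0.32, adjusted p = 0.0399). Against wild type this probe set gave -0.19 in MyD88 KO and 0.13 in TRIF KO. The other Il10ra probe sets gave -0.06 and -0.01 in MyD88 KO, and 0.05 and 0.03 in TRIF KO. Il6ra, Il12rb1, Il12rb2, Jak1, Tyk2, Stat3 and Stat4 passed in no comparison. Il6ra read 7.98 to 8.33 on all arrays, and its 4 h difference was 0.02 in wild type, -0.15 in MyD88 KO cells and -0.20 in TRIF KO cells.

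Of 12 other cytokines of the same families 7 were measured, and 1 passed. Ebi3, which encodes a p40-related cytokine chain, rose by 0.37 ± 0.08 at 4 h (limma adjusted p = 0.013) and was lower in MyD88 KO than in wild type (-0.39 ± 0.08, adjusted p = 0.0164). Its level went from 8.55 to 9.10 in wild type between 0 h and 4 h, from 8.25 to 8.47 in MyD88 KO and from 8.53 to 8.89 in TRIF KO. Lif passed no test, with 1 h differences of 0.07 in wild type, -0.31 in MyD88 KO cells and 0.45 in TRIF KO cells.

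Regulators of the transcription or mRNA stability of these cytokines were measured for 24 of 26 listed genes. At 1 h limma called 5 higher and 0 lower, and at 4 h 9 higher and 2 lower. In MyD88 KO 7 were lower and 1 higher than in wild type, and in TRIF KO 0 were lower and 1, the general factor Sp1, higher. Of all 22626 probe sets, 37 were higher and 0 lower at 1 h, and 783 higher and 940 lower at 4 h. In MyD88 KO 454 of all probe sets were lower and 656 higher, and in TRIF KO 82 and 187. The regulator higher in MyD88 KO was Irf8 (0.39, limma adjusted p = 0.0389). Its second probe set, 1416714_at, was not called there (0.31, 0.182). A second Sp1 probe set, 1448994_at, was not called in TRIF KO (0.04, limma adjusted p = 0.874). The median difference of the regulators in wild type was 0.17 at 1 h and 0.21 at 4 h. Nfkbiz, which encodes the IkB zeta protein needed for Il6 and Il12b transcription, had the widest response. Its 1 h differences were 3.86 in wild type, 1.39 in MyD88 KO cells and 3.32 in TRIF KO cells, and its 4 h differences were 2.60, 0.63 and 2.05. It was lower in MyD88 KO (-2.43 ± 0.32, SE, limma adjusted p = 0.000839), and its effect of TRIF KO was -0.16 ± 0.32 (adjusted p = 0.902). The MyD88 KO effect averages over the times, and at 0 h Nfkbiz already read 5.92 in MyD88 KO and 6.87 in wild type. A second Nfkbiz probe set, 1448728_a_at, gave smaller differences. They were 2.52, 0.54 and 2.19 at 1 h and 1.44, 0.15 and 1.29 at 4 h in the same order. It was also lower in MyD88 KO (-1.46, adjusted p = 0.00567).

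Other activators moved less. Cebpd, a C/EBP factor, had 4 h differences of 1.04 in wild type, 0.27 in MyD88 KO cells and 0.86 in TRIF KO cells and was lower in MyD88 KO (-0.56 ± 0.14, adjusted p = 0.0406). A second Cebpd probe set, 1456605_at, passed neither test, with 4 h differences of 0.08, -0.01 and 0.10. Cebpb rose by 0.85 ± 0.07 at 4 h (limma adjusted p = 1.78e-05), with differences of 0.84, 0.92 and 0.79 in wild type, MyD88 KO and TRIF KO. Irf1 had 4 h differences of 1.45, 0.70 and 0.59 in the same order and was lower in MyD88 KO (-0.60 ± 0.13, adjusted p = 0.0215). Rel, the NF-kB subunit c-Rel that acts on Il12b, was lower in MyD88 KO (-0.51 ± 0.13, adjusted p = 0.0429). Its 4 h effect was 0.46 ± 0.13 (adjusted p = 0.0527). Junb, Rela, Bcl3 and Spi1 also rose at 4 h. Cebpa and Irf8, a factor with a known role in Il12b transcription, fell at 4 h by 0.42 and 0.55.

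Among genes of mRNA decay, Zfp36, which encodes tristetraprolin, rose at 1 h by 1.11 ± 0.11 (limma adjusted p = 0.000888), and its 4 h effect was 0.11 ± 0.11 (adjusted p = 0.72). Zc3h12a, which encodes the RNase Regnase-1 that degrades Il6 and Il12b mRNA, had 1 h differences of 1.29 in wild type, 0.03 in MyD88 KO cells and 0.89 in TRIF KO cells. Its 4 h differences were 0.90, 0.12 and 0.85. It was lower in MyD88 KO (-0.94 ± 0.17, adjusted p = 0.00596), with an effect of TRIF KO of -0.03 ± 0.17 (adjusted p = 0.968). Arid5a, which encodes a stabiliser of Il6 mRNA, passed no test and differed from the unstimulated array by -0.11 to 0.03.

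Targets of STAT3 downstream of interleukin 6 and interleukin 10 were measured for 9 of 10 listed genes, and 4 of the 10 are also in the list of regulators. Whether their changes came through interleukin 6 or interleukin 10 was not tested. At 1 h 2 rose, at 4 h 4 rose, and 4 were lower in MyD88 KO. Socs3, the feedback inhibitor of gp130 signalling, was 7.66, 9.53 and 9.51 in wild type at 0, 1 and 4 h. In MyD88 KO it was 7.57, 7.95 and 7.67, and in TRIF KO 7.86, 8.91 and 9.29. These values are of 1416576_at, and the other Socs3 probe sets gave larger differences in MyD88 KO. They were 1.37 at 1 h and 0.89 at 4 h for 1455899_x_at, and 1.56 and 0.92 for 1456212_x_at, beside 2.76 and 3.05, and 2.34 and 2.90, in wild type. With 1416576_at, Socs3 rose by 1.13 ± 0.24 at 4 h (limma adjusted p = 0.0107) and was lower in MyD88 KO (-1.17 ± 0.24, adjusted p = 0.0135), with an effect of TRIF KO of -0.21 ± 0.24 (adjusted p = 0.804). The other probe sets were also called at 4 h (1.99 and 2.05, adjusted p = 0.00049 and 0.000253) and in MyD88 KO (-1.49 and -1.63, adjusted p = 0.00553 and 0.00211). At 1 h limma called these other Socs3 probe sets too (2.05 and 1.97, adjusted p = 0.0039 and 0.0034), but not 1416576_at (1.10, 0.162). Il4ra, Il1rn and Pim1 passed neither time test.

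These 4 lists held 39 calls over the 5 comparisons, and 11 of them passed in limma whichever 1 array was left out. The 11 were Nfkbiz at 4 h, in MyD88 KO and between the knockouts, Cebpb at 4 h and in MyD88 KO, Zfp36 at 1 h, and Rela, Bcl3, Irf1, Irf8 and Junb at 4 h. Among those named above, Jak2 and Socs3 at 4 h lost the call without wild-type 0 h, wild-type 4 h, TRIF KO 0 h or TRIF KO 4 h, with adjusted p up to 0.086 and 0.0816. Socs3 in MyD88 KO lost it without the 1 h or 4 h array of wild type or MyD88 KO (up to 0.11), and Zc3h12a in MyD88 KO without wild-type 1 h (0.0521). Il10rb at 4 h passed in none of the 9 fits with 1 array left out. Rel in MyD88 KO passed in 2 of these fits. Cebpd in MyD88 KO, Il10ra between the knockouts and Cebpa at 4 h passed in 3. Il6st at 4 h and Sp1 in TRIF KO passed in 4, and Irf1 in MyD88 KO in 5. Ebi3 passed in 6 at 4 h and in 7 in MyD88 KO. Centring the arrays on reference transcripts turned no direction but ended the calls of Il6st (adjusted p = 0.123), Il10rb (0.353) and Cebpa (0.0538) at 4 h, and of Ebi3 (0.058), Rel (0.0631), Junb (0.0535) and Il1rn (0.195) in MyD88 KO. Between the knockouts it ended those of Il10ra (0.162) and Cebpb (0.0879). It gave 3 regulators higher and 5 lower in MyD88 KO, and 7 higher at 1 h.

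**Figure D4:**
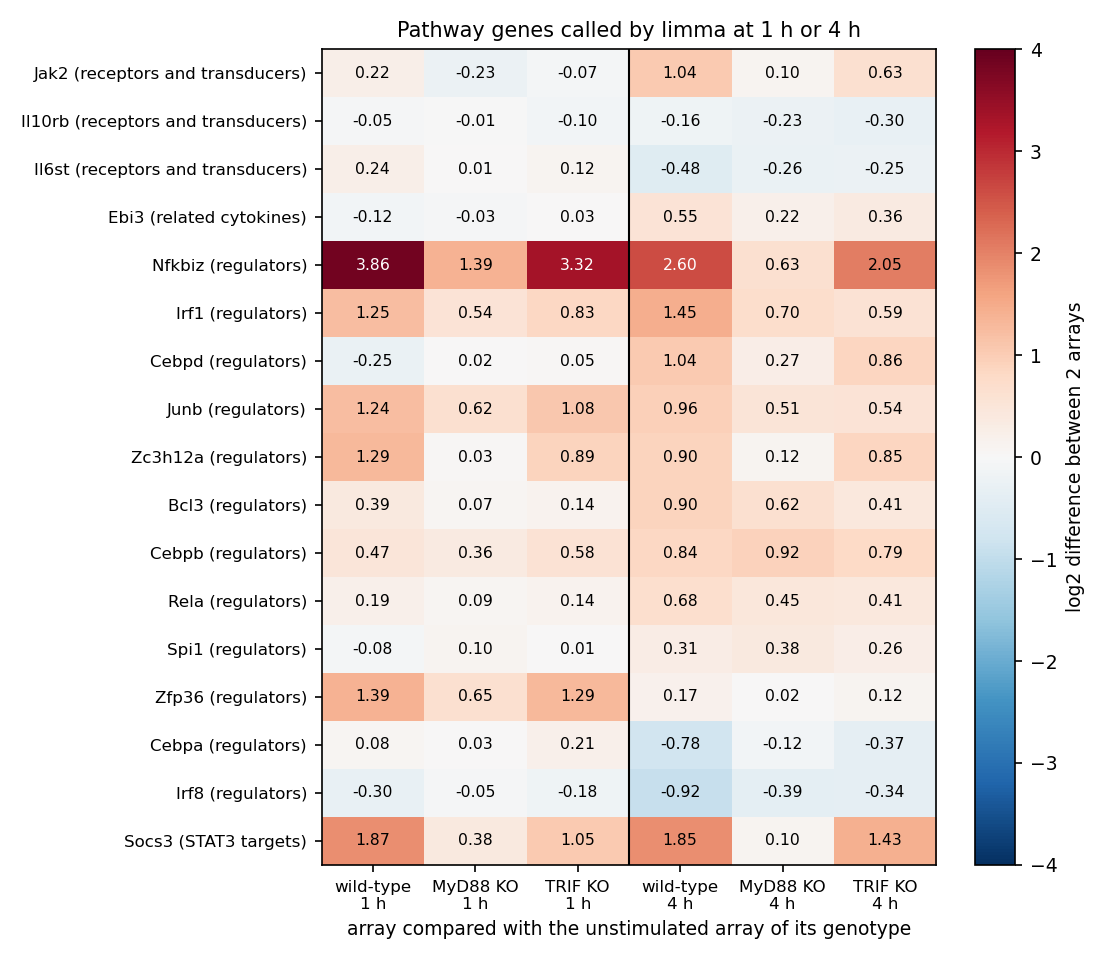
Log2 difference from the unstimulated array of the same genotype (colour and printed value) for the 17 genes of the 4 pathway lists that limma called at 1 h or 4 h; rows are genes with their list, columns are the 3 genotypes at 1 h (left) and 4 h (right). Nfkbiz has the darkest cells (3.86 in wild type at 1 h), and Zc3h12a is pale in MyD88 KO (0.12 at 4 h), as is Socs3 with the probe set shown (0.10) but not with the other 2 (0.89 and 0.92).

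Genes with the pattern most like Il6 and Il12a were sought among 367 genes that spanned at least 1 (log2), by Pearson correlation over the 9 arrays, which are no independent replicates and share genotypes and times. The 5 genes most like Il6 were Ccl4 (r = 0.942), Ptgs2 (0.942), Cxcl5 (0.940), Il12a (0.937) and Cd40 (0.905). Those most like Il12a were Cxcl5 (0.989), Ch25h (0.963), Icosl (0.954), Slc39a14 (0.951) and Ptgs2 (0.951). Cxcl5, a neutrophil-attracting chemokine, went from 4.11 to 6.47 in wild type between 0 h and 4 h, from 4.09 to 4.02 in MyD88 KO and from 4.09 to 5.01 in TRIF KO. The wild-type 4 h array weighed on the likeness to Il6: without it, over 8 arrays, r was 0.859 for Ptgs2, 0.69 for Ccl4, 0.613 for Il12a, 0.436 for Cxcl5 and 0.292 for Cd40. The genes most like Il12a had r from 0.775 to 0.947 without it. By rank correlation over 9 arrays, 1 of the 5 genes was shared for Il6 and 2 of 5 for Il12a. Il12b, Il23a and Il10 spanned less than 1 and were not searched. Among the members, Il6 correlated with the Il12b probe sets with r = 0.964 and 0.953. Both Il12b probe sets were also highest on wild-type 4 h, and their r without that array was not computed.

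**Figure D5:**
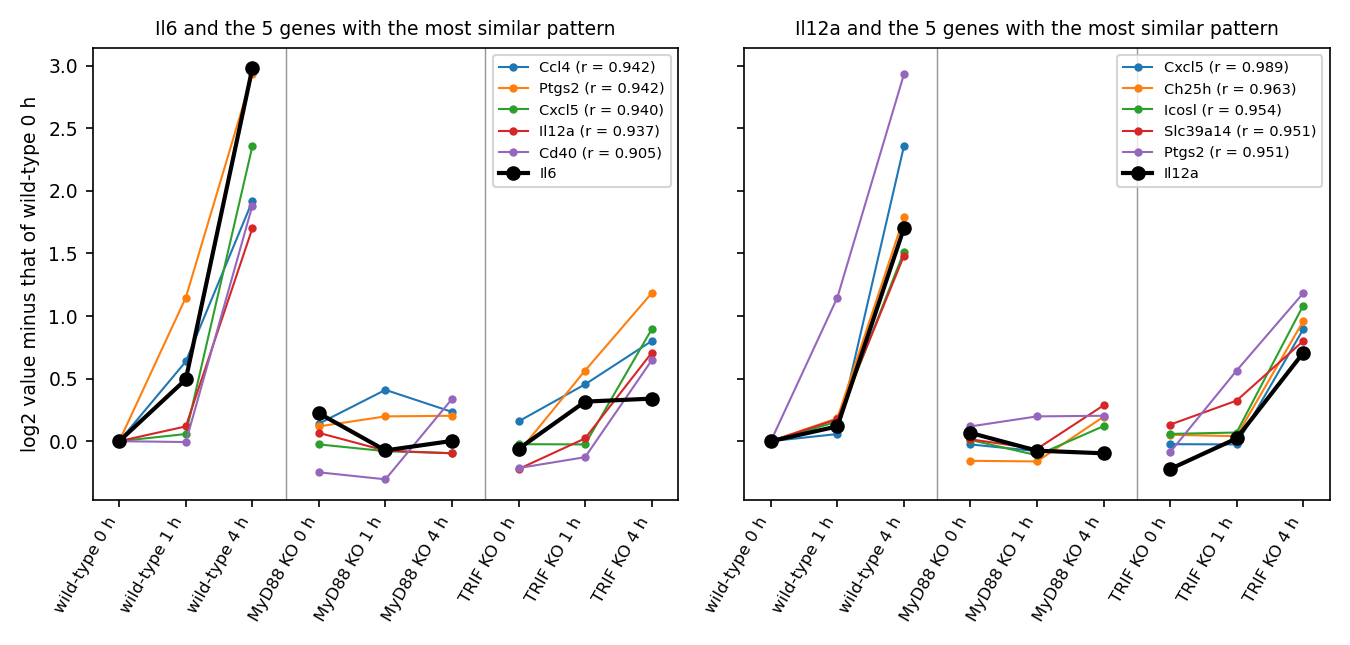
Log2 value minus that of wild-type 0 h (vertical axis) on each of the 9 arrays (horizontal axis) for Il6 (left, black) and Il12a (right, black) and the 5 genes with the highest Pearson r with each. Every curve peaks at wild-type 4 h, and at TRIF KO 4 h Il6 (0.34) lies below the 5 genes most like it, of which Il12a is 0.70.

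Markers of other cells were read because lymphocytes and stromal cells can also make or answer these cytokines, and because in bulk RNA fewer cells of a type and less RNA per cell cannot be told apart. Macrophage markers, 8 of 8 measured, summed to 92.6 to 94.4 (log2) over the arrays, with 1 gene higher and 2 lower at 4 h. In MyD88 KO, Fcgr1 was higher (0.31) and Adgre1 and Cd14 were lower (-0.28 and -0.47) than in wild type, and Cd14 was lower than in TRIF KO (-0.61). B cell markers, 6 of 7 measured, summed to 43.3 to 44.6 in wild type, 42.3 to 42.8 in MyD88 KO cells and 41.8 to 42.3 in TRIF KO cells, with 2 genes lower in each knockout. Fibroblast and mesothelial markers, 10 of 10 measured, summed to 61.4 to 61.6 in wild type, 64.6 to 65.0 in MyD88 KO cells and 63.1 to 64.9 in TRIF KO cells, with 3 genes higher in each knockout. Markers of T and NK cells, dendritic cells, mast cells, neutrophils and eosinophils had no call. The part of these cells in the member values was not tested. Within wild type, where Il6 and Il12a differed most, the fibroblast and mesothelial sum was 61.4 at 0 h and 61.6 at 4 h, and the B cell sum was 44.6 and 43.3.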

How the data were processed

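Total RNA of 9 mouse macrophage samples was read on Affymetrix arrays. The deposited values are log2 expression per probe set, which the authors made by RMA according to the submitters' processing notes. Neither the RMA version nor joint normalization of the arrays is stated in the sources used here. Precision is limited by the number of arrays. The values were used without further change.

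Of 22690 probe sets, 64 controls were left out. Probe sets were named from the platform annotation, with symbols updated through RefSeq: 20380 had 1 symbol, 691 several and 1555 none, and 20351 matched. For list genes, the probe set with the highest mean was used. No build is named for the deposited values.

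The members and lists were chosen with earlier results of these data known. Comparisons of 2 arrays are differences of log2 values without a test. The fit used limma 3.58.1 in R 4.3.3 (lmFit and eBayes without trend, genotype plus time, two-sided), with 4 residual degrees of freedom and 8.60 prior ones, and was tested on simulated data. Named genes were all member probe sets, the 5 genes most correlated with each member that spanned at least 1, list genes called at 1 h or 4 h, and up to 5 more per list with the largest differences. Il6ra, Jak1, Tyk2, Sp1, Arid5a, Fcgr1, Adgre1, Cd14 and the genes named for their excess stand outside that rule. These genes, and Rel and Il10ra, were named after their values were seen. Alternatives were a filter and a floor at log2 = 6, centring on 8 reference transcripts, eBayes with trend, and leaving out arrays, genotypes or times. The other settings of the excess were chosen after seeing the data.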

Additional observations from a re-analysis of the deposited data

Results flagged for a closer look

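The LPS difference of a gene ran in opposite directions in 2 genotypes, each with 1 array a time, in 8 comparisons that lay at least 0.5 (log2) apart. None of these differences between genotypes was tested. For Il6 at 4 h the wild-type difference exceeded that of MyD88 KO by 3.20 (2.98 against -0.22), and that of MyD88 KO minus that of TRIF KO was -0.62. At 1 h the same pairs were apart by 0.79 and by -0.68. For Il12a at 4 h they were apart by 1.86 and by -1.09. For Il12b at 4 h wild type exceeded MyD88 KO by 0.85 with 1449497_at and by 1.08 with 1419530_at. In MyD88 KO the Il6 differences were -0.30 at 1 h and -0.22 at 4 h, beside a span of 0.28 between unstimulated arrays, and the Il12a difference at 4 h was -0.16, beside 0.29. Those of Il12b were -0.12 and -0.22, beside 0.06 and 0.18.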

How the results depend on the processing

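Of 465 recalculations of the 30 fitted member effects, 414 kept their sign, 12 of them passing newly, 31 had the opposite sign without a call, and 20 became exactly 0 with low values raised. No effect was called to begin with, so none could lose a call. Raising values below 6 to 6 left wild-type 4 h differences of 0.96 for Il6, 1.25 for Il12a, 0.27 and 0 for Il12b and 0 for Il23a. Centring on reference transcripts moved every wild-type 4 h difference by 0.20, to 3.18 for Il6, 1.90 for Il12a, 0.92 and 1.06 for Il12b, 0.54 for Il23a and 0.20 for Il10, so the second Il12b probe set passed 2-fold. The limit of 5 put 1 member probe set near the floor. Over all probe sets, limma called 37 at 1 h, 1723 at 4 h, 1110 in MyD88 KO, 269 in TRIF KO and 350 between knockouts, and 0, 186, 113, 26 and 7 with low values raised. With only the 16712 probe sets that reached log2 = 6 on at least 1 array, the counts were 37, 1762, 1094, 249 and 345. Raising made the 26.1% of probe sets below 6 on all 9 arrays constant, so its lower counts do not place the calls in low probe sets. Centring gave 67 at 1 h and turned the 4 h split from 783 higher and 940 lower to 1098 higher and 409 lower, the MyD88 KO split from 656 and 454 to 1003 and 253, and that between knockouts from 129 and 221 to 185 and 145. Without the wild-type arrays 20 passed at 1 h and 815 at 4 h, without the MyD88 KO arrays 85 at 1 h, and without the TRIF KO arrays 822 at 4 h. Without the 1 h arrays 401, 68 and 66 passed in MyD88 KO, in TRIF KO and between knockouts, and without the 4 h arrays 362, 146 and 232. Leaving out single arrays gave counts of 10 to 57 at 1 h, 824 to 2017 at 4 h, 470 to 1362 in MyD88 KO, 102 to 400 in TRIF KO and 127 to 463 between knockouts. No paired analysis was possible because the labels give each group 1 array and no pairing numbers beyond genotype and time, which are in the fit. RMA values carry no detection call, so a low level cannot be told from background.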

Other observations

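The excess of the wild-type 4 h value over genotype and time effects, which was highest for Il6, was also read for the other probe sets at the top of that order. These genes were named after their values were seen, and their differences rest on 1 array a point. Chemokine and prostaglandin genes followed Il6: Ccl5 with an excess of 1.15, Ptgs2 (cyclooxygenase 2) with 0.87 and 0.83 on 2 probe sets, Ccl3 with 0.87 and Cxcl5 with 0.84. Il1b had 0.80 and Cxcl1 0.79. The knockouts differed among these genes. The 4 h difference of Ccl5 was 3.80 in wild type but 2.03 with MyD88 missing and 0.46 with TRIF missing. Cxcl1 had 4.25, 0.22 and 2.95 in the same order. Il6 was small in both knockouts, with -0.22 and 0.40. Ptgs2 1417262_at had 3.42, 0.02 and 1.72, and Cxcl10, an interferon-responsive chemokine with an excess of 0.57, had 3.03, 2.53 and 0.64.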
